A study of Mus musculus with 9 samples.

Results

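Nuclear-encoded genes of the mitochondrial respiratory chain were followed by complex in spinal cord motoneurons of mice with a spinal cord injury. Genes were taken by symbol from the table that the authors deposited. Symbols starting with Ndufa, Ndufb, Ndufc, Ndufs or Ndufv, followed by a digit or the letter b, gave complex I. Sdha to Sdhd gave complex II, and Uqcr symbols with Cyc1 gave complex III. Symbols starting with Cox and a digit from 4 to 8 gave complex IV, and those starting with Atp5 gave complex V. Symbols ending in a pseudogene mark were left out, as were 8 symbols of cytochrome oxidase isoforms. This gave 83 gene identifiers with 82 symbols, of 55401 genes in the table, because Atp5o stands for 2 identifiers. Complex I holds 41 of them, complex II 4, complex III 9, complex IV 11 and complex V 18.

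The libraries were made with Smart-seq2, which amplifies full-length cDNA from little RNA, from wild-type motoneurons that carried the fluorescent label TRDA and were drawn into glass electrodes from fresh slices. The SBES group had the injury and synergistic bidirectional electrical stimulation, the untrained group had the injury without stimulation, and the sham group was the control, with 3 libraries each, all taken at 4 weeks. SBES libraries 1, 2 and 3 were stimulated at 10, 15 and 20 Hz, so that frequency and library cannot be told apart within that group. The labels name 3 mice per group without tying a library to a mouse, call the libraries single-cell in their titles, and state neither the number of neurons in a library nor the age or strain. The p-values below therefore refer to the spread from library to library, some of which may come from the technique. Fewer cells of a type and less RNA per cell cannot be told apart in these values. Values of the 3 untrained libraries and of SBES 1 rest on a match of columns to libraries by elimination.

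The respiratory chain sits in the inner mitochondrial membrane. Complex I takes electrons from NADH and complex II takes them from succinate, both pass them to ubiquinone, complex III hands them on to cytochrome c, and complex IV delivers them to oxygen. Complexes I, III and IV pump protons, and complex V, the ATP synthase, uses the proton gradient to make ATP. Apart from complex II, each complex joins subunits from nuclear genes with subunits from the mitochondrial genome. Motoneurons have long axons and a high demand for ATP.

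Total counts per library ran from 11821145 to 17675948, and the 83 genes held between 4.71% and 7.31% of them. This share was 4.71%, 5.25% and 5.35% in SBES libraries 1 to 3 and 7.31%, 6.07% and 6.69% in sham libraries. In untrained libraries it was 7.03%, 5.30% and 5.36%. The TMM factors that adjust the library totals were 0.760 in SBES 1 and 0.727 in sham 1, and 1.02 to 1.16 in the others. A lower factor raises the scaled values of a library. The library numbered 1 of each group stood apart. Malat1, a nuclear noncoding RNA, was at 4774, 16069 and 15128 CPM (counts per 1e6 of the library total) in SBES 1, untrained 1 and sham 1, and between 514 and 1617 in the other 6. Motor neuron markers were present in every library, with a sum over 6 genes between 234 and 350 CPM of the TMM-adjusted total in SBES libraries, between 130.5 and 326 CPM in untrained libraries and between 164 and 423 CPM in sham libraries. Transcripts of other cells were abundant. The sum over 8 oligodendrocyte markers was 47322 to 77464 CPM in SBES libraries, 38509 to 58073 CPM in untrained libraries and 49523 to 109278 CPM in sham libraries, and sham 1 was the highest. Their part in the levels of the respiratory chain genes was not tested.

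Many respiratory chain genes are known targets of NRF1, of the ETS factor GABP and of YY1, and their short cores were searched on both strands of the RefSeq promoter windows, which run from 250 bases before to 50 bases after a gene's start (build GRCm38.p6). Windows were found for 64 of the genes, 69 windows in all, and 21263 windows of all coding genes served for comparison. The NRF1 core GCATGCGC stood in 13.0% of the windows of respiratory chain genes and in 3.52% of all windows. The YY1 core AAGATGGC stood in 14.5% and 3.05%, the ETS core CCGGAAG in 21.7% and 11.6%, and the SP1 core GGGCGG in 40.6% and 46.2%. A match describes the letters and does not show binding. The windows below belong to 4 genes of complexes II, III and V, among them the peripheral stalk gene Atp5j, each with a pair of these cores, and show where the cores lie. Capitals mark the NRF1, ETS and YY1 cores on either strand; in Atp5k both orientations of the NRF1 core overlap in 1 run of capitals. The window of Atp5j also lies next to Gabpa, the gene of a GABP subunit, which overlaps Atp5j on the other strand.
Sdhb (chr4:140961021-140961320, + strand): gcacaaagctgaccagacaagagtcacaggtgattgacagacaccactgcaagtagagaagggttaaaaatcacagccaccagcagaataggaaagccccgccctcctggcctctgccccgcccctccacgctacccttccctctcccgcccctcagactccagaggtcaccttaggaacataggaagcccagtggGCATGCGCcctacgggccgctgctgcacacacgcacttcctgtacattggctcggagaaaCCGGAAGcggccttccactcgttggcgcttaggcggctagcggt
Uqcr11 (chr10:80406772-80407071, - strand): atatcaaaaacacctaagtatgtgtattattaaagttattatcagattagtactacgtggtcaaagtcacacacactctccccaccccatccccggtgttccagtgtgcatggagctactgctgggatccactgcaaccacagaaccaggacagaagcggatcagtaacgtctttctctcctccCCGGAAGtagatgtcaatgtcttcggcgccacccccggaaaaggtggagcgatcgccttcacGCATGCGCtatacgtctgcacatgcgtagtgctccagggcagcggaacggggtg
Atp5k (chr5:108434350-108434649, - strand): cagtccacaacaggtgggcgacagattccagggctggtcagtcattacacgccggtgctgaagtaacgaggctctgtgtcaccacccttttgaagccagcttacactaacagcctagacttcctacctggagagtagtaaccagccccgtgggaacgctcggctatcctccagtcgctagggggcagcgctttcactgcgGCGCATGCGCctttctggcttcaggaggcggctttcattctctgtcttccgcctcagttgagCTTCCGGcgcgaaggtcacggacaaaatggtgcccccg
Atp5j (chr16:84834927-84835226, - strand): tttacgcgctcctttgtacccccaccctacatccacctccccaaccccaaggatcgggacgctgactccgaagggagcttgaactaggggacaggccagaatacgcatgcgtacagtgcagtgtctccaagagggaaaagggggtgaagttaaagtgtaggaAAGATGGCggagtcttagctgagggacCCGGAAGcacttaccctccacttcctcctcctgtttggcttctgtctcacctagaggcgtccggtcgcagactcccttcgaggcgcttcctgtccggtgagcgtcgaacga

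Of the 83 genes, 79 passed the filter on low counts and were tested, 39 in complex I, 4 in complex II, 9 in complex III, 10 in complex IV and 17 in complex V. The other 4 were Ndufa11b, Ndufs6b and the second identifier of Atp5o, which had 0 counts in all 9 libraries, and Cox8c, a testis isoform with 1 count in SBES 3. Levels are given as TMM-scaled FPKM, the count per kilobase of exonic length, scaled by the TMM-adjusted library total, which allows genes to be compared per length. The order of the tested genes by level was alike in all libraries. Spearman's rho over these 79 genes ran from 0.91 to 0.99 over the 36 pairs of libraries, which all carry the same gene lengths.

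In complex I, the flavoprotein Ndufv1, which holds the FMN that accepts electrons from NADH, was at 133, 174 and 165 TMM-scaled FPKM in SBES libraries 1 to 3, 164, 167 and 208 in untrained libraries and 125, 201 and 190.4 in sham libraries. The 3 groups overlapped for Ndufv1, and sham 1 was the lowest sham library. Ndufs7, which carries the last iron-sulfur cluster before ubiquinone, had the opposite order among sham libraries, with 585, 478 and 594 TMM-scaled FPKM in SBES libraries, 802, 402 and 506 in untrained libraries and 1088, 528 and 637 in sham libraries. Ndufs1, the largest iron-sulfur subunit, was at 9.27 to 12.3 TMM-scaled FPKM in SBES libraries, 12.01 to 14.4 in untrained libraries and 11.5 to 16.6 in sham libraries. Its exonic length in the table is 8086 bases, against a median of 1718 bases over the tested genes, and the level is a count per length.

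Accessory subunits of complex I reached higher levels. The highest mean of the complex belonged to Ndufa2, an accessory subunit of the NADH-binding arm, at 2552, 1545 and 1625 TMM-scaled FPKM in SBES libraries, 2492, 1348 and 1381 in untrained libraries and 3784, 1332 and 1832 in sham libraries. The library numbered 1 was the highest of its group in all 3 groups. Ndufb11, of the membrane arm, was at 480.3 to 695 in SBES libraries, 489.9 to 668 in untrained libraries and 564 to 949 in sham libraries. Ndufa4, named with complex I but since assigned to cytochrome oxidase, was at 738 to 1082 in SBES libraries, 810.1 to 1219.6 in untrained libraries and 837 to 2026 in sham libraries. For these accessory genes the groups overlapped, and sham 1 held the highest value of all 9 libraries.

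Complex II was the least abundant by median. Sdha, the flavoprotein that oxidises succinate, was at 108, 93.7 and 111 TMM-scaled FPKM in SBES libraries, 122, 118 and 137 in untrained libraries and 99.5, 138 and 99.2 in sham libraries. Every SBES library was below every untrained library, and the sham libraries spanned both. Sdhb, the iron-sulfur subunit, was the highest of the complex at 273 to 426 in SBES libraries, 368 to 447 in untrained libraries and 358 to 461 in sham libraries. The membrane anchors Sdhc and Sdhd were lowest in the library numbered 1 of each group. Sdhd was at 109, 205 and 235 in SBES libraries, 139.8, 245 and 245 in untrained libraries and 168, 269 and 250.2 in sham libraries, and Sdhc at 63.8, 85.7 and 130.5 in SBES libraries, 85.9, 132 and 129.8 in untrained libraries and 82.2, 149.9 and 138 in sham libraries.

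In complex III each of the 5 small subunits had a higher mean level per length than each of the 4 core and catalytic ones. Uqcr11, a small subunit, had the highest mean of the complex, at 3307, 1659 and 2549.5 TMM-scaled FPKM in SBES libraries, 3133, 1851 and 1745 in untrained libraries and 6130.3, 1963 and 2692 in sham libraries. Uqcrc2, a core subunit, had the lowest, at 92.3 to 119 in SBES libraries, 94.1 to 123 in untrained libraries and 112 to 127 in sham libraries. Sham 1 was the highest of all libraries for Uqcr11, while for Uqcrc2 all 9 libraries lay within 1.38-fold. The Rieske iron-sulfur protein Uqcrfs1 was at 249, 235 and 289.5 in SBES libraries, 287, 348 and 338 in untrained libraries and 269, 411 and 364 in sham libraries. Uqcrc1, the other core subunit, was at 247 to 313 in SBES libraries, 287 to 349 in untrained libraries and 267 to 376 in sham libraries. Cytochrome c1, Cyc1, which passes electrons to cytochrome c, was at 262, 302 and 414 in SBES libraries, 309, 311 and 357 in untrained libraries and 387, 429 and 463 in sham libraries. Every untrained library was below every sham library for Cyc1, and 1 SBES library reached into the sham range.

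In complex IV the highest mean was that of Cox6b1, a small subunit at the cytochrome c side, with 2749, 1547 and 1894 TMM-scaled FPKM in SBES libraries, 2087, 1434 and 1422 in untrained libraries and 4779.7, 1696 and 2269 in sham libraries. Cox5a and Cox5b, which contact the catalytic core, were at 459.6 to 826 and 734 to 1169.7 in SBES libraries, 345 to 732 and 712 to 1071 in untrained libraries and 459 to 1319 and 794 to 1888 in sham libraries. Sham 1 was again the highest library for these 3 genes. Cox7a2l, a factor that joins complexes III and IV into supercomplexes, hardly varied, with 153, 174 and 169 in SBES libraries, 161, 168 and 167 in untrained libraries and 132, 173 and 175 in sham libraries. Sham 1 was the lowest library for Cox7a2l. Cox6b2 and Cox7b2, isoforms known from testis, were near the limit, between 0.352 and 11.3 and between 1.21 and 2.98 over all libraries.

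In complex V the catalytic beta subunit Atp5b was at 732, 589 and 582 TMM-scaled FPKM in SBES libraries, 528, 578 and 669 in untrained libraries and 799.5, 774 and 858 in sham libraries. All 6 libraries of injured mice were below all 3 sham libraries. Its partner Atp5a1, the alpha subunit, was at 353, 360.3 and 340.3 in SBES libraries, 329, 297 and 337 in untrained libraries and 341, 371 and 430.1 in sham libraries, so that untrained libraries were the lowest and SBES and sham libraries overlapped. The highest mean belonged to Atp5k, a small subunit at the dimer contact, with 1442, 489.6 and 577 in SBES libraries, 978, 484 and 420.3 in untrained libraries and 2816, 480.0 and 877 in sham libraries. Atp5k spanned 6.70-fold over the libraries, against 1.45-fold for Atp5a1, and its highest value in each group was that of the library numbered 1. The c-ring subunit is encoded by 3 genes with the same mature protein. Atp5g3 was the main one at 581 to 751 in SBES libraries, 530.0 to 546 in untrained libraries and 584 to 1394 in sham libraries, followed by Atp5g1 at 93.2 to 127, 90.9 to 139.8 and 109 to 236 in the same order of groups. Atp5g2 had 292 counts over all 9 libraries.

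**Figure D1:**
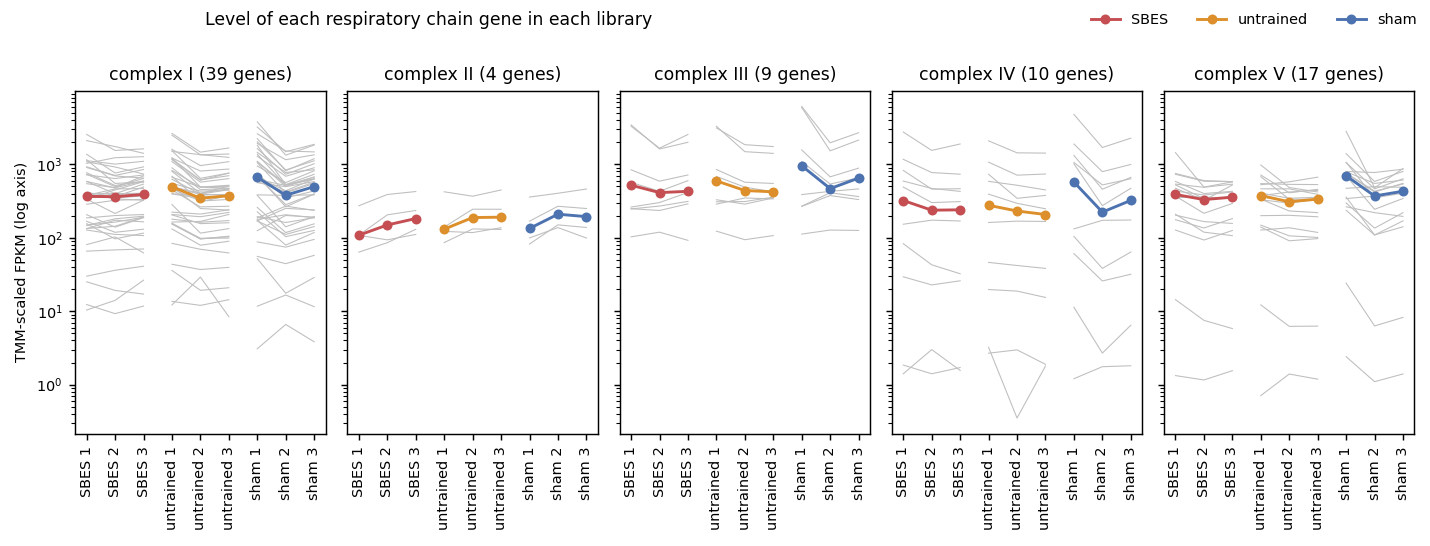
TMM-scaled FPKM (log axis) of the 79 tested genes in each library, a panel for each complex. Grey lines join the values of a gene within a group and coloured points are the median over the genes of the complex. Medians of complexes I, III, IV and V are highest in sham 1, and those of complex II are lowest in the library numbered 1 of each group.

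Complex I gave 47.3% to 52.8% of the summed TMM-scaled FPKM of all members in SBES libraries, 50.8% to 54.3% in untrained libraries and 47.0% to 50.7% in sham libraries. The sums do not hold the cytochrome oxidase isoforms left out of complex IV, so the shares are those among the genes taken. The share of complex II was the smallest, at 1.24% to 2.49% in SBES libraries, 1.61% to 2.99% in untrained libraries and 0.939% to 2.75% in sham libraries. It was lowest in the library numbered 1 of each group. Summed over all members, the level was 37716 ± 6275 in SBES libraries, 36936 ± 9410 in untrained libraries and 51445 ± 21239 in sham libraries (SD, n = 3 each). The sums of libraries 1 to 3 were 44586, 32288 and 36272 in SBES libraries, 47783, 30947 and 32079 in untrained libraries and 75402, 34921 and 44014 in sham libraries. After this scaling the groups overlapped. As shares of the total counts, the SBES libraries lay wholly below the sham libraries. SBES 1, the highest SBES library in these sums, had the lowest share of all libraries. Genes with symbols starting with mt- held 18.6% of the total counts in SBES 1 and 2.47% to 7.36% in the other libraries. Those counts are part of the total that the share is taken of, and their part in it was not tested. Within each replicate number the SBES and the untrained library were below the sham library in the sums of TMM-scaled FPKM. The labels do not say that a number is shared between groups.

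The comparison of untrained with sham libraries addresses the effect of the injury. No respiratory chain gene was called, with edgeR's quasi-likelihood test at an adjusted p under 0.05, nor was any gene of the 15893 tested (0.0% called). Most of the genes had a negative fold change. Of the 79 tested, 72 were negative and 7 positive, with a median log2 fold change of -0.42, while over all genes tested 50.9% were negative and the median was -0.01. By complex the medians were -0.32 in complex I (36 of 39 negative), -0.04 in complex II (2 of 4), -0.50 in complex III (9 of 9), -0.73 in complex IV (8 of 10) and -0.64 in complex V (17 of 17). At an unadjusted p under 0.05, 8 genes were lower, against 2.27% of all genes, and 1 was higher, against 2.18% of all genes. DESeq2 called 0 of the genes and 18 of all genes (0.113%).

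Leaving out sham 1 moved these medians. Without sham 1 the median over the respiratory chain genes was -0.11, with 59 of 79 negative, and over all genes 0.06. The medians were then -0.02, -0.15, -0.16, -0.20 and -0.20 in complexes I to V. Leaving out sham 2 gave -0.62, untrained 2 gave -0.26, untrained 3 gave -0.29, and leaving out the library numbered 1 of all 3 groups gave -0.31. Marker lists shifted as well in untrained against sham libraries, with 8 of 8 oligodendrocyte genes negative (median -0.55), 7 of 8 neuronal genes (median -0.44) and 5 of 6 motor neuron genes (median -0.38). The neuronal sum was 6058 to 6669 CPM in untrained libraries, wholly below the 8056 to 10882 CPM in sham libraries. The part of these cell types in the fold changes was not tested. In limma on FPKM, scaled to the total count, the median of all genes shifted to 0.14 and that of the respiratory chain genes was -0.17, which is -0.31 relative to all genes, and all 4 genes of complex II were positive.

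Roles within a complex differed in their medians. The 7 core subunits of complex I had a median of -0.04 (5 negative) and the 30 accessory subunits -0.40 (30 negative). In complex III the 4 core and catalytic subunits had a median of -0.14 and the 5 small ones -0.63. In complex V the medians were -0.45 for the 5 subunits of the F1 head, -0.57 for the 3 c-ring genes, -0.37 for the 4 peripheral stalk genes and -0.71 for the 5 small membrane subunits. The 6 common subunits of complex IV among the genes taken had a median of -0.73. The cytochrome oxidase isoforms left out, common ones included, are not part of this median. These differences between roles were not tested.

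Untrained libraries did not overlap sham libraries for 11 genes that were lower, against 5.13% of all genes, and for 2 that were higher, against 4.63% of all genes. The 11 were Ndufa8, Ndufab1, Ndufb3, Cyc1, Cox6c2, Atp5a1, Atp5b, Atp5c1, Atp5d, Atp5g3 and Atp5h, and the 2 were Ndufa4l2 and Cox7b2, named here after their values were seen where the roles above did not name them. In complex V the delta subunit Atp5d, which links the catalytic head to the rotor, was at 382, 309 and 331 TMM-scaled FPKM in untrained libraries and 763, 431 and 539 in sham libraries, a log2 fold change of -0.76 ± 0.28 (SE; edgeR adjusted p = 1.00). The epsilon subunit Atp5e, beside it on the rotor, had the smallest unadjusted p of complex V, with 127, 137 and 118 in untrained libraries and 297, 135 and 219.7 in sham libraries, and -0.77 ± 0.28 (edgeR adjusted p = 1.00). The groups overlapped for Atp5e through sham 2. Atp5g3 of the c-ring had -0.79 ± 0.31 and Atp5h of the peripheral stalk -0.64 ± 0.25 as log2 fold changes, and without sham 1 they had -0.33 and -0.36. Atp5b had -0.45 ± 0.24, and -0.43 without sham 1.

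In complex IV the smallest unadjusted p was that of Cox6c2, an intronless relative of Cox6c on chromosome 12 (56373593 to 56373823). GENCODE M21 gives Cox6c2 no coding sequence. Cox6c had 14671 to 33269 counts per library, and whether its reads enter the counts of Cox6c2 was not tested. The counts of Cox6c2 were 69, 78 and 59 in untrained libraries and 129, 94 and 135 in sham libraries, which gave a log2 fold change of -1.12 ± 0.34 (edgeR adjusted p = 1.00) and -0.65 without sham 1. Cox6b2 had 54, 7 and 33 counts in untrained libraries and 115, 47 and 131 in sham libraries, with -1.92 ± 0.67 (edgeR adjusted p = 1.00). For Cox6b2 the groups overlapped, and it was called without the filter on low counts (log2 fold change -1.86, edgeR adjusted p = 0.00307). The fit without the filter called more of all genes as well. In complex III the hinge protein Uqcrh, which sits at the cytochrome c1 side, had the smallest unadjusted p, with 850.3, 570.1 and 549 TMM-scaled FPKM in untrained libraries and 1569.7, 675 and 888 in sham libraries. Its log2 fold change was -0.67 ± 0.33 (edgeR adjusted p = 1.00), and -0.22 without sham 1. In complex II the smallest unadjusted p was that of Sdha, with a positive log2 fold change of 0.16 ± 0.22 (edgeR adjusted p = 1.00). Cyc1 had -0.39 ± 0.24, and -0.42 without sham 1.

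The comparison of SBES with sham libraries sets stimulated injured mice against controls and shares the sham libraries with the comparison above. No respiratory chain gene was called by edgeR, which called 55 of all genes (0.346%). DESeq2 called Ndufa4l2 alone among them, and 300 of all genes (1.89%). Of the 79 genes, 76 were negative and 3 positive, with a median log2 fold change of -0.43, while over all genes 50.2% were negative and the median was -0.00. The medians in complexes I to V were -0.42, -0.25, -0.43, -0.49 and -0.48, with 38 of 39, 4 of 4, 9 of 9, 8 of 10 and 17 of 17 negative. Without sham 1 the median over the genes was -0.13 (56 of 79 negative), with -0.14, -0.36, -0.26, -0.03 and -0.10 by complex, and without the library numbered 1 of all groups it was -0.23. Complex II kept all 4 genes negative in both of these fits. With the replicate number as a block, edgeR called 132 of all genes and none of the 79, whose median was -0.39. Marker lists differed too, with 4 of 8 neuronal genes negative (median -0.07), 5 of 8 oligodendrocyte genes (median -0.15) and 4 of 6 motor neuron genes (median -0.18), and 5 of 8 microglial genes positive (median 0.35). The neuronal sum was 5764 to 10549 CPM in SBES libraries and 8056 to 10882 CPM in sham libraries. Their part in the fold changes was not tested. At an unadjusted p under 0.05, 5 genes were lower, against 3.61% of all genes, and 1 was higher, against 5.7% of all genes.

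SBES libraries lay wholly below sham libraries for 10 genes, against 6.73% of all genes, and above them for 1, against 7.1% of all genes. The 10 were Ndufa1, Ndufab1, Ndufb3, Ndufb6, Ndufs4, Ndufv2, Uqcrb, Atp5b, Atp5c1 and Atp5o, named by this count after their values were seen, and the 1 was Ndufa4l2. Of these, Ndufab1, Ndufb3, Atp5b and Atp5c1 were also among those where untrained libraries lay wholly below the same sham libraries. Ndufab1, the acyl carrier protein of mitochondria, was at 30.0, 36.1 and 41.0 TMM-scaled FPKM in SBES libraries, 43.6, 37.0 and 39.6 in untrained libraries and 55.8, 44.4 and 57.6 in sham libraries. Its log2 fold change was -0.56 ± 0.22 in SBES against sham libraries (edgeR adjusted p = 0.425), and -0.50 without sham 1. Ndufb3, a membrane-arm subunit, was at 344, 398 and 389 in SBES libraries, 398, 371 and 361 in untrained libraries and 583, 419.8 and 573 in sham libraries. Its log2 fold changes were both -0.48 ± 0.21, in untrained against sham libraries (edgeR adjusted p = 1.00) and in SBES against sham libraries (edgeR adjusted p = 0.518). Without sham 1 they were -0.36 and -0.38.

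The smallest unadjusted p of complex III was that of Uqcrb, a small subunit near the ubiquinone site, with 520.0, 412 and 429 TMM-scaled FPKM in SBES libraries and 1089.7, 539 and 654 in sham libraries, and a log2 fold change of -0.75 ± 0.30 (edgeR adjusted p = 0.445). It was -0.38 without sham 1. In complex V the smallest was that of Atp5c1, the gamma subunit that turns inside the head, with 389, 331 and 361 in SBES libraries and 472, 496 and 487 in sham libraries. Its log2 fold change of -0.43 ± 0.21 (edgeR adjusted p = 0.567) was also -0.43 without sham 1, and the 3 sham libraries were close together. In complex II Sdhc had -0.40 ± 0.32 (edgeR adjusted p = 0.776) with overlapping groups. In complex IV Cox6b2 had 14, 48 and 28 counts in SBES libraries and 115, 47 and 131 in sham libraries, with -1.74 ± 0.67 (edgeR adjusted p = 0.413) and overlapping groups, and it was called without the filter on low counts (-1.70, edgeR adjusted p = 0.00408). The fit without the filter again called more of all genes. Ndufa1, an accessory subunit, had -0.67 ± 0.26, and -0.33 without sham 1.

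**Figure D2:**
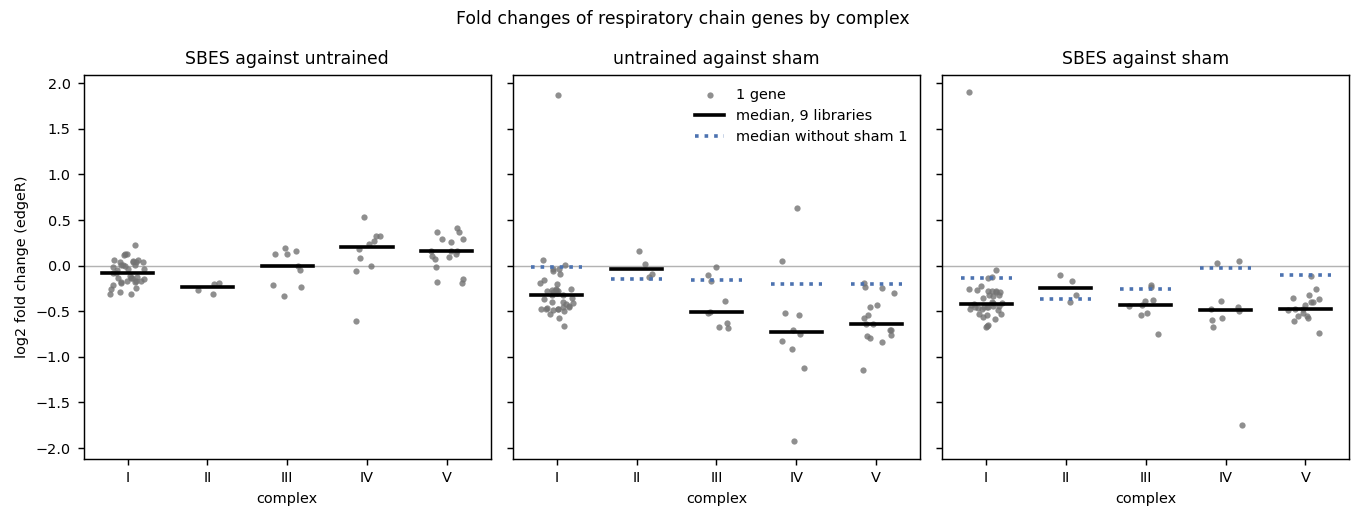
Log2 fold changes (edgeR) of the 79 tested genes by complex in the 3 comparisons. Points are genes, black bars medians over all 9 libraries and dotted bars medians without sham 1. In both comparisons against sham libraries the dotted bars lie closer to 0 than the black bars in every complex but complex II.

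The comparison of SBES with untrained libraries addresses the stimulation. No gene was called by edgeR (0.0% of 15893 genes), and none of the 79 reached an unadjusted p under 0.05, against 1.67% of all genes that were lower and 3.7% that were higher at that level. DESeq2 called none of the 79 and 30 of all genes (0.189%). The median log2 fold change was -0.00 over the respiratory chain genes, with 41 negative and 38 positive, and 0.02 over all genes, of which 48.3% were negative. Medians by complex were -0.08, -0.23, -0.00, 0.21 and 0.16 for complexes I to V. All 8 oligodendrocyte markers were positive here (median 0.35), and their part was not tested. The median over the genes ran from -0.13 to 0.13 as single libraries were left out, changing sign. In limma on FPKM the median of all genes shifted to -0.17 and that of the respiratory chain genes was -0.21, which is -0.04 relative to all genes.

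All 4 genes of complex II were lower in SBES than in untrained libraries by fold change, from -0.31 to -0.19 as log2 values, also without the library numbered 1 of each group, where their median was -0.23. For Sdha, whose libraries did not overlap, the log2 fold change was -0.27 ± 0.22 (edgeR adjusted p = 0.995). SBES libraries lay wholly below untrained libraries for 5 genes, against 4.77% of all genes, and above them for 3, against 5.66% of all genes. The smallest unadjusted p in complex I was that of Ndufa9, an accessory subunit by the ubiquinone arm, at 149, 163 and 190.4 TMM-scaled FPKM in SBES libraries and 207, 194 and 221 in untrained libraries, with a log2 fold change of -0.31 ± 0.23 (edgeR adjusted p = 0.993). Uqcrfs1 had -0.33 ± 0.23 (edgeR adjusted p = 0.993) with overlapping groups. Cox6c2, with 61, 76 and 97 counts in SBES libraries and 69, 78 and 59 in untrained libraries, had 0.53 ± 0.34 (edgeR adjusted p = 0.991), and after scaling its groups did not overlap. Atp5e had 0.37 ± 0.28 (edgeR adjusted p = 0.993).

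Ndufa4l2 was the single gene of the 79 with a fold change near 2 on the log2 scale in the direction of higher levels after injury. It is a paralog of Ndufa4, known as a target of the hypoxia-inducible factor and, in mouse brain, as a gene of pericytes. It lies on chromosome 10 (127514967 to 127517154, plus strand) and overlaps Shmt2 on the other strand. Its level was 10.4, 14.1 and 26.4 TMM-scaled FPKM in SBES libraries, 12.2, 29.1 and 8.43 in untrained libraries and 3.08, 6.61 and 3.83 in sham libraries. The counts behind these levels were 102, 222 and 468 in SBES libraries, 202, 573 and 153 in untrained libraries and 31, 114 and 77 in sham libraries. All 6 libraries of injured mice were above all 3 sham libraries. The log2 fold change was 1.90 ± 0.50 in SBES against sham libraries (edgeR adjusted p = 0.157; DESeq2 adjusted p = 0.00945) and 1.87 ± 0.49 in untrained against sham libraries (edgeR adjusted p = 0.927; DESeq2 adjusted p = 0.0859). Without sham 1 these were 1.73 and 1.71. Without the filter on low counts both passed (edgeR adjusted p = 1.97e-06 in SBES and 8.40e-06 in untrained libraries). That fit keeps every gene with a count and estimates the spread over this larger set. It called more of all genes in every comparison, so these values are not independent support.

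All 6 endothelial markers were positive in both comparisons, with median log2 fold changes of 0.90 in SBES against sham libraries and 0.64 in untrained against sham libraries. Their sum was 533 to 776 CPM in SBES libraries, 423 to 615 CPM in untrained libraries and 276 to 469 CPM in sham libraries. A list of 8 pericyte genes, chosen after the values were seen, summed to 165 to 195 CPM in SBES libraries, 222 to 279 CPM in untrained libraries and 116 to 219 CPM in sham libraries, with Anpep at 0 in at least 1 library. The list of targets of the hypoxia-inducible factor was also chosen after the values were seen. Of 11 tested targets of the hypoxia-inducible factor, 9 were positive in SBES against sham libraries (median 0.16) and 10 in untrained against sham libraries (median 0.73). Of these, the glucose transporter gene Slc2a1, also known from vessels, was called in SBES against sham libraries (log2 fold change 1.56 ± 0.27, edgeR adjusted p = 0.0366). Shmt2, whose reads cannot be told from those of Ndufa4l2 where the genes overlap if strand was not used in the counting, had 0.46 ± 0.26 and 0.50 ± 0.26 in the same comparisons. The part of any of these in the level of Ndufa4l2 was not tested.

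**Figure D3:**
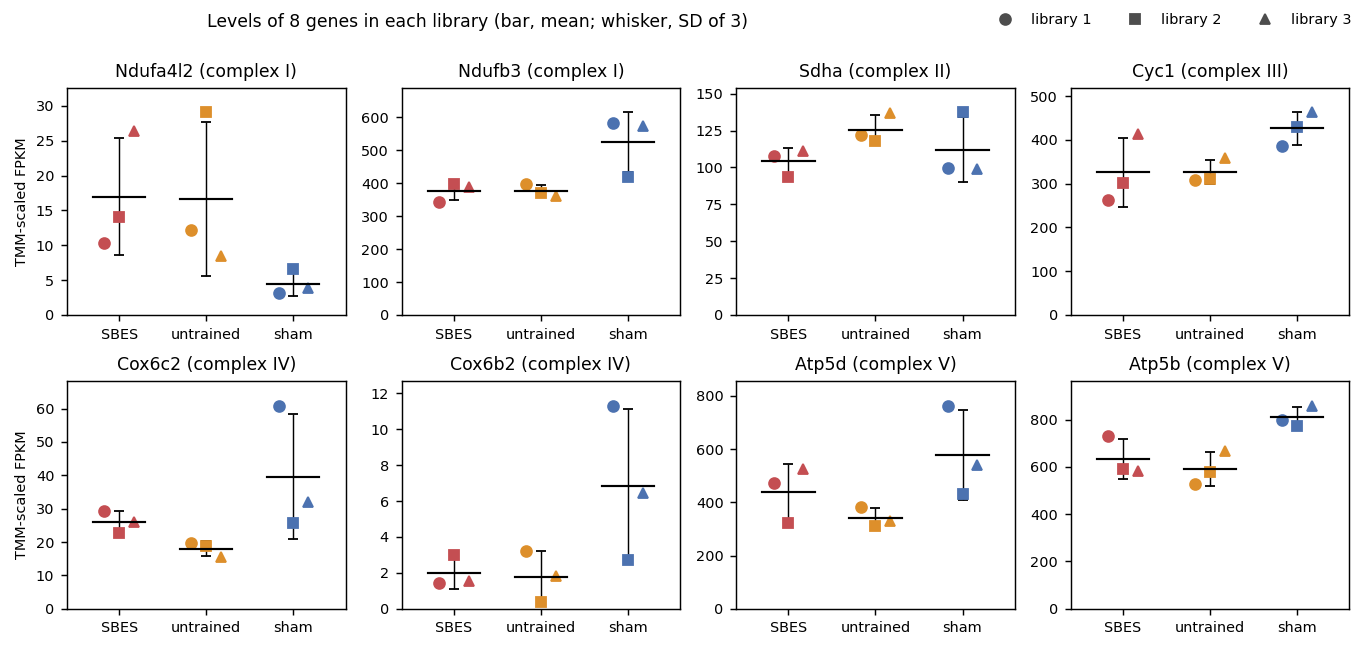
TMM-scaled FPKM of 8 genes in each library, with the mean as a bar and the SD of 3 libraries as a whisker. Ndufa4l2 is higher in all SBES and untrained libraries than in sham libraries, Atp5b is lower in them, and sham 1 is far above sham 2 and 3 for Cox6c2 and Cox6b2 or above sham 2 for Atp5d.

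The spread between libraries of a group followed the length of the coding sequence. Coding lengths were taken from the GENCODE M21 annotation, and for each gene the CPM of the library numbered 1 was set against the mean of the other 2 libraries of its group on the log2 scale. Among the 20 genes with a coding sequence of up to 300 bases, the median difference was 0.52 in SBES libraries (18 of 20 higher in library 1), 0.53 in untrained libraries (19 of 20) and 1.07 in sham libraries (18 of 20). Among the 12 genes with over 900 bases it was -0.08 in SBES libraries (5 of 12 higher), 0.03 in untrained libraries (7 of 12) and -0.23 in sham libraries (1 of 12). Atp5k showed the largest excess in library 1 of the sham group, 2.12, and 1.44 in the SBES group. The pattern was described after the values were seen, and library 1 of the SBES group is also the 10 Hz library.

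Across the 77 tested genes with a coding length, Spearman's rho between that length and the difference was -0.50 in SBES libraries, -0.37 in untrained libraries and -0.66 in sham libraries. Over 13801 other coding genes it was 0.40, 0.04 and 0.23 in the same order of groups. The points of each value share the same 3 libraries. Short coding sequences of other genes did not show the same size of difference, with medians of -0.15, 0.18 and 0.27 over 259 other genes of up to 300 bases. Sdhc and Sdhd, with 507 and 477 coding bases, went the other way, with -0.73 and -1.01 in SBES libraries, -0.61 and -0.81 in untrained libraries and -0.81 and -0.62 in sham libraries. Ndufv3 went against its length too, with 1404 annotated coding bases and 0.43, 0.68 and 0.98.

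**Figure D4:**
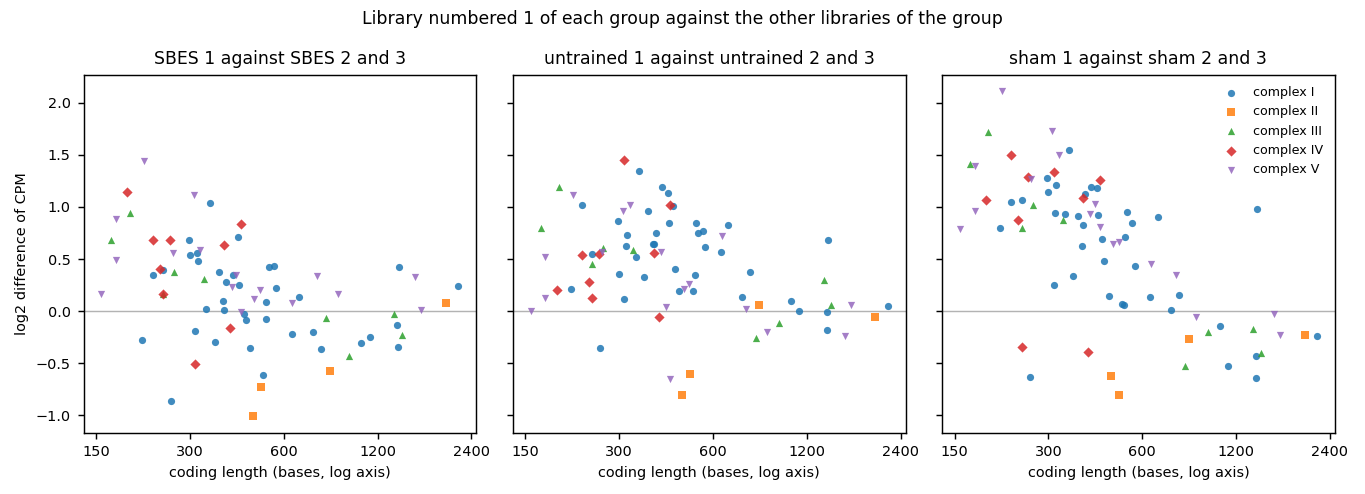
Log2 difference of CPM between the library numbered 1 and the mean of the other 2 libraries of its group, against the coding length in bases (log axis), for 77 genes in SBES, untrained and sham libraries. Of the 20 genes of up to 300 bases, 18 lie above 0 in SBES libraries, 19 in untrained libraries and 18 in sham libraries, where their median is 1.07. Ndufa4l2 lies below 0 in all 3 groups, and the anchors of complex II lie below 0 in all 3 groups.

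Fold changes between groups followed the same length. Spearman's rho between coding length and the log2 fold change over the 77 genes was 0.67 in untrained against sham libraries and 0.60 in SBES against sham libraries. It was -0.46 in SBES against untrained libraries. Without sham 1 it was -0.07 in untrained against sham libraries and -0.46 in SBES against sham libraries. The genes of up to 300 bases had median log2 fold changes of -0.66 in untrained against sham libraries and -0.54 in SBES against sham libraries, and those of over 900 bases -0.12 and -0.23. Without sham 1 the medians were -0.13 and -0.02 for the short genes and -0.15 and -0.32 for the long ones, so that the long ones were then lower than the short ones in SBES against sham libraries.

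Ratios of single subunits within a complex and a library also differed between libraries. The ratio of Uqcrc1 to Uqcr10, the longest and a short subunit of complex III, was 0.0717, 0.167 and 0.157 in SBES libraries, 0.0999, 0.193 and 0.247 in untrained libraries and 0.0450, 0.246 and 0.155 in sham libraries. Library 1 was the lowest in every group. The ratio of Atp5a1 to Atp5k in complex V was 0.245, 0.736 and 0.590 in SBES libraries, 0.336, 0.614 and 0.803 in untrained libraries and 0.121, 0.772 and 0.490 in sham libraries. The groups overlapped for both ratios. These pairs were chosen after their values were seen, so they do not stand for other ratios. The median core over the median accessory subunit of complex I was 0.457, 0.474 and 0.432 in SBES libraries, with library 1 not the lowest. It was 0.426, 0.531 and 0.578 in untrained libraries and 0.269, 0.630 and 0.409 in sham libraries. Library 1 was the lowest of every group for core and catalytic over small subunits of complex III. The same held for F1 over small membrane subunits of complex V.

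Sham 1 held the highest of the 9 values for 54 of the 79 genes (68.4%), and for 13.1% of all genes tested. It did so for 27 of 39 genes of complex I, 0 of 4 of complex II, 5 of 9 of complex III, 8 of 10 of complex IV and 14 of 17 of complex V. No SBES library was the highest for any of the 79, while SBES 1, 2 and 3 were so for 19.0%, 8.44% and 12.7% of all genes. The lowest value lay in untrained 2 for 25 genes (31.6%, against 8.82% of all genes). It lay in SBES 1 for 15, among them 3 of the 4 genes of complex II. These 15 are 19.0% of the 79, near the 16.6% of all genes.

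Partners of the nuclear genes were read from the same fit. The 13 mitochondrially encoded subunits, which complete complexes I, III, IV and V, had 13 of 13 negative in untrained against sham libraries (median log2 fold change -0.74), and 6 of 13 negative in SBES against sham libraries (median 0.13). Without sham 1 the medians were 0.31 and 0.98, so that the direction of the first turned. Summed over these subunits, SBES libraries were at 79056, 21727 and 17332 CPM and sham libraries at 65934, 15932 and 22174 CPM. SBES 1 was the highest library, and SBES 2 and 3 lay between sham 2 and sham 3. The summed CPM of these subunits was 1.28, 0.456 and 0.330 times that of the 83 nuclear genes in SBES libraries, 0.323, 0.645 and 0.420 times in untrained libraries and 0.655, 0.301 and 0.344 times in sham libraries. SBES 1 had the highest ratio, and the groups overlapped.

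Assembly factors of the 5 complexes had 46 of 53 negative in SBES against sham libraries (median -0.33) and 36 of 53 in untrained against sham libraries (median -0.20). Without sham 1 these medians were -0.29 and -0.12. Mitochondrial ribosomal proteins had 73 of 78 negative (median -0.23) and 58 of 78 (median -0.12) in the same comparisons, and protein import genes 25 of 27 (median -0.21) and 18 of 27 (median -0.10). Carriers of electrons and their partners had 9 of 10 negative (median -0.31) and 7 of 10 (median -0.09). None of the genes in these lists was called by edgeR. SBES libraries lay wholly below sham libraries for 13 of the 53 assembly factors, 13 of the 78 ribosomal proteins, 4 of the 27 import genes and 3 of the 10 carriers, against 6.73% of all genes. Untrained libraries lay wholly below sham libraries for 5, 4, 3 and 1 of these, in the same order of lists, against 5.13% of all genes.

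Known regulators of these genes were read from the same fit. Over 15 regulators the median log2 fold change was 0.05 in SBES against sham libraries and -0.01 in untrained against sham libraries. Ppargc1a, the coactivator of mitochondrial biogenesis, was at 20.7, 20.5 and 18.9 CPM in SBES libraries, 21.4, 22.8 and 16.1 CPM in untrained libraries and 19.7, 18.2 and 15.3 CPM in sham libraries. Nrf1, whose core stands in the windows above, was at 10.8, 11.9 and 9.65 CPM in SBES libraries, 11.4, 11.9 and 9.05 CPM in untrained libraries and 9.91, 11.995 and 10.1 CPM in sham libraries. For both the groups overlapped. Against sham libraries, the log2 fold changes in SBES and in untrained libraries were 0.20 ± 0.35 and -0.36 ± 0.35 for Gabpa, 0.33 ± 0.26 and 0.37 ± 0.26 for Yy1, -0.33 ± 0.33 and -0.19 ± 0.33 for Esrra and -0.17 ± 0.22 and -0.25 ± 0.22 for Tfam, the packaging factor of mitochondrial DNA.

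Some levels are uncertain because of copies in the genome. For 16 of the genes another annotated gene that does not overlap them matched at 98% identity or more over at least 150 bases. Reads that fit both could be split or dropped by the counting. The copy Gm12338 of Cox7c, a small subunit of complex IV, had 20011 counts over the 9 libraries and Cox7c itself 7587, and the copy Gm10221 of Atp5l had 14433 and Atp5l 7754. Cox7c was at 83.0, 42.9 and 32.4 TMM-scaled FPKM in SBES libraries, 46.2, 41.9 and 38.3 in untrained libraries and 104, 38.3 and 64.0 in sham libraries. Atp5g1, Atp5h, Atp5md and Cox5b had copies with 44764, 36039, 19793 and 17627 counts, and Atp5g2 had copies with 115 and 85 counts. Of the 83 genes, some of those with copies included, 31 overlap a gene on the other strand and 13 a gene on the same strand, and the strand setting of the counting is not given in the sources used here.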

How the data were processed

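Smart-seq2 libraries of 9 samples in 3 groups of 3 were analysed. Per the labels' protocols, Hisat2 2.0.1 served the authors for alignment, HTSeq 0.6.1 for counting and DESeq2 for testing. Per the submitters' processing notes, the genome build was mm10. Neither annotation release nor strand setting is given in the sources used here. Whole-number counts per gene and library were deposited together with, per the file headers, FPKM (counts scaled by exonic length and by the library total).

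The deposited counts were tested with edgeR 4.0.16 in R 4.3.3. Genes passing filterByExpr (15893) were scaled by TMM and fitted in 1 quasi-likelihood model over all 9 libraries with a coefficient per group. A gene was called at an adjusted p (Benjamini-Hochberg, over all genes tested) under 0.05. The standard error (SE) of a log2 fold change is its size over the square root of the F statistic. Differences between libraries used log2(CPM + 0.5). DESeq2 1.42.0, other size factors, no filter, limma 3.58.1 on log2(FPKM + 1) where 3 libraries or more reached an FPKM of 1, fits of the compared groups alone, a replicate block and left-out libraries were alternatives. Near-identical copies were found with blastn 2.17.0. Coordinates are those of the deposited table; all 83 genes had the same ones in GENCODE M21.

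The genes, the gene lists and the alternatives were chosen with earlier results of these data known, so no p-value was computed over a list. Genes were named by role, as the smallest p of each complex, or as the highest and lowest mean of a complex; others named are said to have been chosen after their values were seen. The inhibitor Atp5if1, in the list by role, is not among the genes taken. Another gene of the list by role is not reported here. The pericyte and hypoxia lists were added after the values were seen. The edgeR step was tested on simulated data. Total counts per library were 11821145 to 17675948, and since reads from PCR copies are not separate molecules, these totals do not give the precision. The titles number the libraries 1 to 3 in each group without saying that a number is shared. Deviations from the group means correlated within the numbers 1, 2 and 3 at 0.27, 0.16 and 0.14 between SBES and sham libraries, at 0.39, 0.00 and 0.22 between untrained and sham libraries and at 0.24, -0.17 and 0.26 between SBES and untrained libraries. The numbers were taken to pair libraries where all 3 values exceeded 0.1, which held for SBES against sham libraries, from the data and not from the labels.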

Additional observations from a re-analysis of the deposited data

How the results depend on the processing

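No call of a respiratory chain gene was made by edgeR on the filtered genes, with any single library left out or with the replicate block. Without the filter on low counts, 2 were called in untrained against sham libraries and 2 in SBES against sham libraries (Ndufa4l2 and Cox6b2 in both), and DESeq2 called 1 in SBES against sham libraries (Ndufa4l2). Fold changes were followed for 27 pairs of a respiratory chain gene and a comparison, which include those printed above for single genes of the chain. They kept their direction under each alternative run, in 351 values, of which 5 passed the threshold that the value over all 9 libraries missed. Those printed were mostly named for the smallest p of a complex or for groups that did not overlap, which favours a stable direction. Some other members turned sign without sham 1. Ndufa2 went from -0.41 to 0.17 in untrained against sham libraries, and Cox6b1 from -0.50 to 0.07 in SBES against sham libraries. The fold changes of the regulators, Shmt2 and Slc2a1 were not followed. The median over the respiratory chain genes ran from -0.62 to -0.11 in untrained against sham libraries, from -0.62 to -0.13 in SBES against sham libraries and from -0.13 to 0.13 in SBES against untrained libraries as single libraries were left out. Each of these values lay less than 0.33, the SD of the median between libraries of a group, from the value over all 9 libraries. That SD includes sham 1 itself, so it cannot show that the medians are stable. In untrained against sham libraries the median went from -0.42 to -0.11 without sham 1.

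Counts of all genes called moved more. In untrained against sham libraries (0 called) they were 18 with DESeq2, 134 without the filter and 47 without the library numbered 1 of each group. In SBES against sham libraries (55 called) they were 300 with DESeq2, 517 without the filter, 19 with limma and 581 without the libraries numbered 1, and 0 to 86 with single libraries left out: 86 without SBES 1, 4 without SBES 3, 29 without sham 1, 6 without sham 2 and 0 without sham 3. In SBES against untrained libraries (0 called) they were 30 with DESeq2, 186 without the filter, 1 with limma and 13 without the libraries numbered 1, and 0 to 1 with single libraries left out. The split of calls in SBES against sham libraries was 43 higher and 12 lower, and 13 higher and 6 lower with limma.

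In fits with the replicate block, 4 genes were called in untrained against sham libraries, 132 in SBES against sham libraries and 0 in SBES against untrained libraries, and none of the respiratory chain genes. The medians over these genes were -0.39, -0.39 and 0.02. The block changed no call of a respiratory chain gene printed above. Not every library correlated best with the library of its own number.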
